A study of Homo sapiens with 7 samples.

Results

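The comparison described here is that of histone H2A phosphorylated at threonine 120 (H2A pT120) with unprecipitated DNA in control cells. It was read as the ratio of 2 libraries: chromatin precipitated with anti-H2A pT120, and input DNA, which is sheared chromatin that no antibody has selected. Reads of both were compared over 120012 regions out of the 148917 that the 7 peak lists of the study hold. The regions came from the 5 lists called in libraries other than the pair compared, lay on chromosomes 1 to 22, and held at most 100 reads in each of both input libraries. Of regions that overlapped by 1 bp or more, the longest was kept, which left 101789 non-overlapping regions covering 27.95 Mb.

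HT1080, an established human fibrosarcoma line, was transfected with a non-targeting siRNA (siControl) or with siRNA against the kinase VRK1 (siVRK1). Chromatin was sequenced after precipitation (ChIP-seq) with anti-H2A pT120 or with an antibody against H2A ubiquitylated at K119 (ubK119) under both siRNAs, and with anti-VRK1 in siControl cells. Input DNA was sequenced under both siRNAs, giving 7 libraries. All came from 1 cell line, each stands alone for its antibody and siRNA, and neither a genotype nor a time after transfection was given. The main groups here are therefore 1 siControl pT120 library and 1 siControl input library, with no replicate, and intervals below cover counting error only. VRK1 was precipitated in siControl cells only, so the libraries hold no check of its loss in siVRK1 cells, and ChIP reads hold no marker of the cell type.

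Threonine 120 lies next to the lysine K119 near the carboxyl end of H2A. In mitosis the kinase BUB1 phosphorylates H2A at this residue around centromeres, where the mark recruits shugoshin proteins that guard sister chromatid cohesion, and VRK1 is a nuclear kinase that can phosphorylate the same residue in nucleosomes. K119 is the site at which Polycomb repressive complex 1 adds a single ubiquitin to H2A at repressed genes.

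Depth was modest. The siControl pT120 library held 20687408 reads, the fewest of the 7, and the siControl input held 26893399. The other libraries held 29976119 to 40442635. Values are RPM, the reads of a region scaled to the total reads of its library, so a ratio of 1 means that the antibody took the same share of its reads from a region as the input did. At this depth 3 reads, the most that a count of 0 allows, were 0.145 RPM of pT120 and 0.112 RPM of input. The regions were short, with a median of 223 bp (range 200 to 3190), and the median region held 3 pT120 reads (quartiles 2 and 5) and 4 input reads (quartiles 2 and 7). Only 36829 of the regions (36.2%) held 10 or more reads of both libraries together. The other 64960 entered sums but no count of regions above or below input.

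Summed over all 101789 regions, H2A pT120 in control cells was almost level with input. The regions took 22662 RPM of the pT120 library and 22753 RPM of the siControl input, a ratio of 0.996 (95% interval 0.992 to 0.9998). The median region had a log2 ratio of 0.016 with quartiles of -0.76 and 0.67, after 0.5 reads were added to each library. Among regions of 10 reads or more the quartiles were -0.54 and 0.58. The input of siVRK1 cells gave a further control. Against it, with the regions of its own list left out because they were called as high in it, the summed ratio was 0.962 (0.959 to 0.966). No p-value is given, as 1 library a side leaves no spread between samples to test against.

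The ratio depended on the library in which a region had been called. It was highest in regions listed for siVRK1 ubK119, at 1.16 (1.15 to 1.17), from 5026 RPM of pT120 and 4323 RPM of input in 13083 regions. Regions listed for VRK1 followed with 1.06 (1.05 to 1.07), from 6409 and 6050 RPM in 16639 regions. The 28127 regions listed for siControl ubK119 had a ratio of 0.992 (0.985 to 0.998). The 20584 regions listed for siVRK1 input had 0.991 (0.984 to 0.997). The lowest ratio was in the 41579 regions listed for siVRK1 pT120, at 0.880 (0.875 to 0.886). So the regions in which pT120 had been called after VRK1 siRNA were those in which control cells held the least pT120 relative to input.

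The siVRK1 input, which saw no antibody, had the same order over the 4 antibody lists, with the same denominator. Relative to the siControl input it stood at 1.22 in siVRK1 ubK119 regions, at 1.11 in VRK1 regions, at 1.06 in siControl ubK119 regions and at 0.902 in siVRK1 pT120 regions. When pT120 was divided by the siVRK1 input, the ratios drew together. They were then 0.952 in siVRK1 ubK119 regions, 0.951 in VRK1 regions, 0.940 in siControl ubK119 regions and 0.976 in siVRK1 pT120 regions. The siVRK1 pT120 list, the lowest over the siControl input, was thus the highest of these 4 over the siVRK1 input, at 0.970 to 0.982. Both lists with a ratio above 1 over the siControl input were therefore below 1 over the siVRK1 input. The part of the input libraries in these list differences was not tested. The other antibodies of siControl cells set the scale: VRK1 over the siControl input was 1.69 in its own regions, and ubK119 was 1.87 in its own regions, where each had been called as high.

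**Figure D1:**
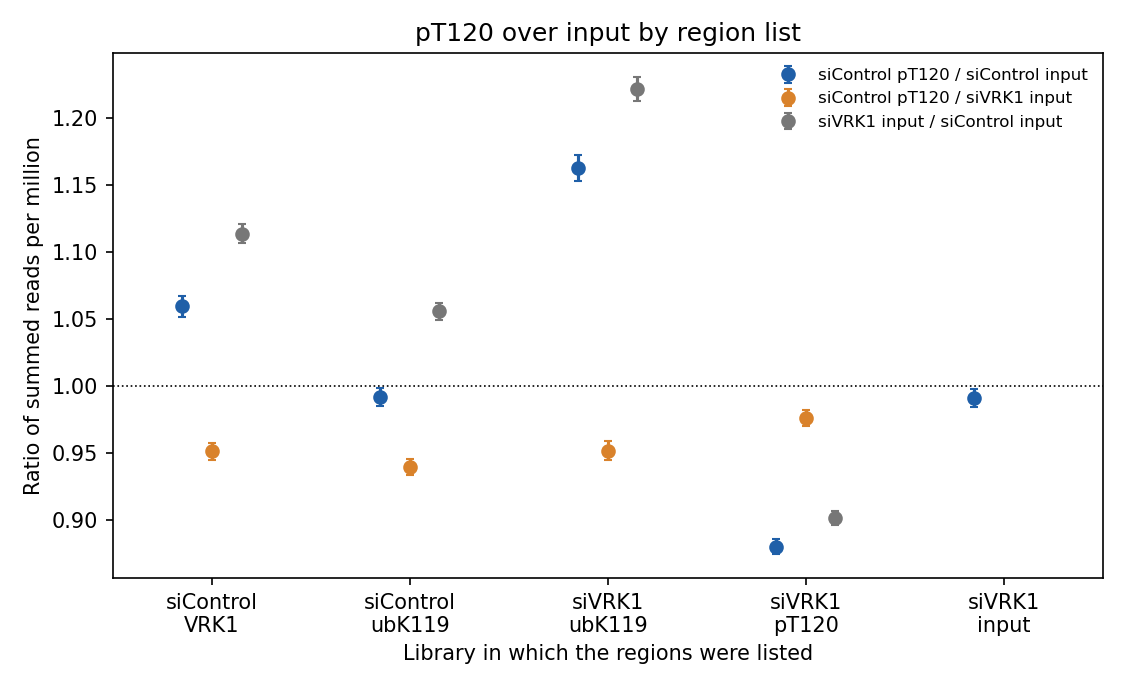
Ratio of siControl H2A pT120 to the siControl input (blue) and to the siVRK1 input (orange), and of the siVRK1 input to the siControl input (grey), as ratios of summed RPM with 95% counting intervals, for the 5 lists that gave the regions (horizontal axis). For the 4 antibody lists the blue points spread from 0.880 to 1.16 in the order of the grey points, and the orange points lie between 0.940 and 0.976; for the siVRK1 input list, ratios with that library are not drawn.

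The limit of 100 input reads bore on these directions. With no limit, the ratio was 0.936 in VRK1 regions and 0.952 in siVRK1 ubK119 regions, so both turned to below 1. The 2681 regions over the limit had a ratio of 0.864 (0.862 to 0.866). Close to the limit, 737 regions with 81 to 100 reads in the higher input had 0.925, and 495 regions above 100 and up to 120 had 0.944. In these classes by input reads, overlapping regions of different lists were each counted. Reads can therefore enter more than once, and the interval given can be too narrow. Leaving out every region that overlapped a peak of either input, which removes regions of high input counts, raised the ratio to 1.20 in VRK1 regions and to 1.36 in siVRK1 ubK119 regions. Over the siVRK1 input both were then 1.01.

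The regions were also sorted by other libraries. By quartile of siVRK1 input RPM per kb, from the lowest, pT120 over the siControl input was 0.908, 0.997, 1.04 and 0.994. From the lowest to the highest quartile of VRK1 RPM per kb, pT120 over the siControl input was 0.857, 0.957, 1.01 and 1.04. Over the siVRK1 input, with its list left out, the same quartiles had 0.955, 0.953, 0.953 and 0.975. The differences were smaller, and only the highest quartile, with an interval of 0.969 to 0.981, still stood above the others. Quartiles of siControl ubK119 had 1.01, 0.986, 0.995 and 0.997, so pT120 relative to input changed little between regions of low and high ubiquitylation at the neighbouring residue. Length made as little difference, with 0.987 in regions under 250 bp and 1.004 in regions of 1000 bp or longer. By the number of lists that held a region, the ratio was 0.992 in 1 list, 1.02 in 2, 1.002 in 3, 1.06 in 4 and 0.941 in all 5. Among the classes by number of lists, length, VRK1 and ubK119, only the class in 4 lists had an interval above 1 over the siVRK1 input as well. Its ratio was 1.02 (1.01 to 1.04) with regions of the siVRK1 input list left out. All 1475 regions of that class took 1847 RPM of pT120 and 1887 RPM of the siVRK1 input, so with that list kept pT120 was the lower.

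Counted by region, excesses and deficits over input were about as frequent. Of the 36829 regions with 10 reads or more, 4752 (12.9%) had an RPM ratio of 2 or more and 5034 (13.7%) had 0.5 or less. An interval wholly above 1 was found for 1425 regions (3.87%), and wholly below 1 for 955 (2.59%). The 2 inputs set against each other gave shares of similar size. Outside the siVRK1 input list, siVRK1 input over siControl input was 2 or more in 15.5% of 39768 regions and 0.5 or less in 8.49%. Its interval lay above 1 in 3.63% and below 1 in 1.76%. By list, regions with a pT120 interval above 1 made up 8.12% of siVRK1 ubK119 regions, 5.25% of VRK1 regions, 3.38% of siControl ubK119 regions, 2.78% of siVRK1 input regions and 1.62% of siVRK1 pT120 regions. Regions below input were the most frequent in the siVRK1 pT120 list, at 3.64%.

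**Figure D2:**
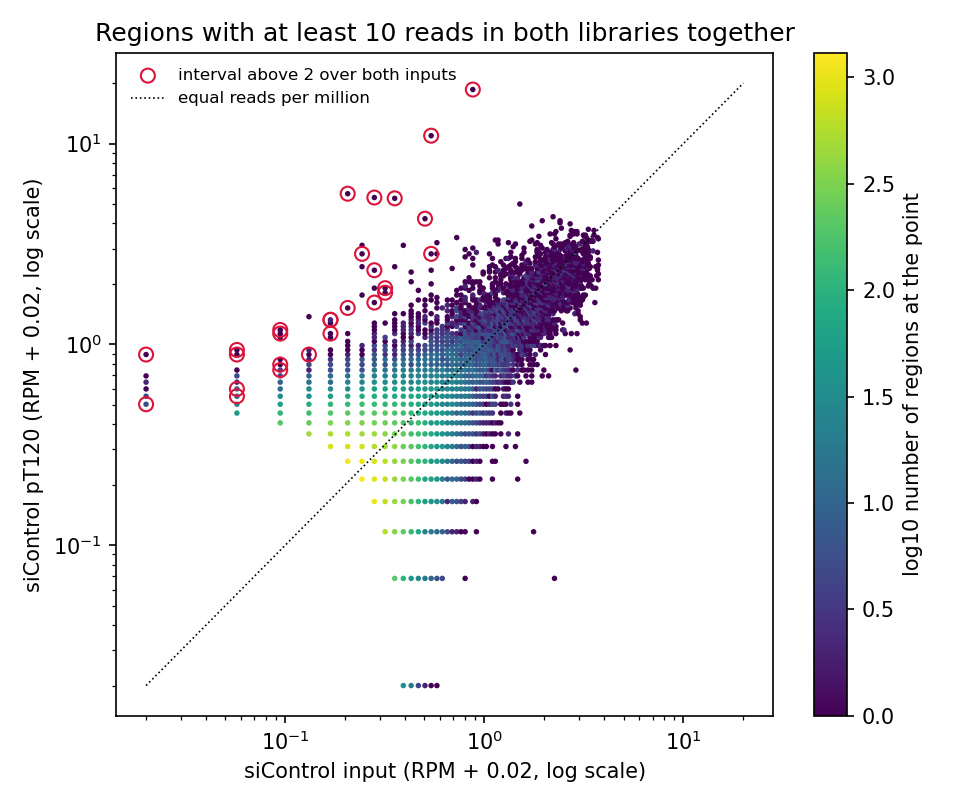
RPM of siControl input (horizontal axis) and of siControl H2A pT120 (vertical axis), both plus 0.02 on log scales, for the 36829 regions with 10 reads or more, coloured by the number of regions at a point. Most regions lie along the dotted line of equality, and the circled 27 regions, whose intervals lie above 2 over both inputs, lie to its upper left.

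Few of these calls held against both inputs. Of 27014 regions tested outside the siVRK1 input list, 1152 had an interval above 1 over the siControl input, and 293 of those (25.4%) also had it over the siVRK1 input. In the other direction 669 lay below the siControl input and 138 of those (20.6%) below the siVRK1 input. Against the siVRK1 input alone, 8.93% of 34631 regions had a ratio of 2 or more and 15.1% had 0.5 or less, and the interval lay above 1 in 2.28% and below 1 in 2.12%. The comparisons with both inputs share the pT120 library and so are not independent of each other.

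A small set stood far above both inputs. A lower bound over 2 was reached by 90 regions against the siControl input, and by 27 of them against both inputs. The 27 were singled out after their values had been seen, and they are described here without a test. They lay on 14 chromosomes and had a median length of 368 bp, against 296 bp for the tested regions. Of the 27, 18 (66.7%) were held in all 4 antibody lists, against 4.23% of tested regions. A siControl pT120 peak overlapped 25 of them (92.6%), against 9.15% of tested regions, as the choice by high pT120 makes likely. A siControl input peak overlapped 4 (14.8%), against 16.7%. Of the 23 on chromosomes with a well defined widest stretch without regions, as described below, 1 lay within 2 Mb of it, which is 4.35% against 9.57% of tested regions.

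In most of the 27 regions other antibody libraries were high as well. Their pT120 values ran from 0.483 to 18.6 RPM with a median of 1.31. The siControl input had a median of 0.149 RPM and a highest value of 0.855, and the siVRK1 input a median of 0.150 and a highest value of 0.421. VRK1 had a median of 1.15 RPM and siVRK1 ubK119 a median of 1.17, both close to that of pT120. Control ubK119 and siVRK1 pT120 were lower, with medians of 0.668 and 0.555. The VRK1 interval over the siControl input was above 1 in 26 of the 27, against 7.89% of the 27014 tested regions. That of siControl ubK119 was above 1 in 21, against 9.05%. In siVRK1 cells, the pT120 interval over the input of those cells was above 1 in 18 and below 1 in 0, against 10.2% and 20.4% of tested regions. In the other 9 it included 1, as on chromosome 16 at 17421450 to 17421650 with 3 pT120 reads and 5 input reads. These shares are in part set by the choice of regions. All 27 came from antibody lists, 11 of them from siVRK1 ubK119. All were chosen as high over the same inputs that serve as denominators here. Of the 27, 18 were held in every antibody list, that of siVRK1 pT120 included, so siVRK1 pT120 had been called as high there. The tested regions hold that list too. In the VRK1 and both ubK119 lists alone, the siVRK1 pT120 interval was above 1 in 1.29% and below 1 in 24.4% of 28311 regions. The count above 1 in siVRK1 cells is therefore no independent reading. Sequence and genes at these positions were not analysed here.

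**Figure D3:**
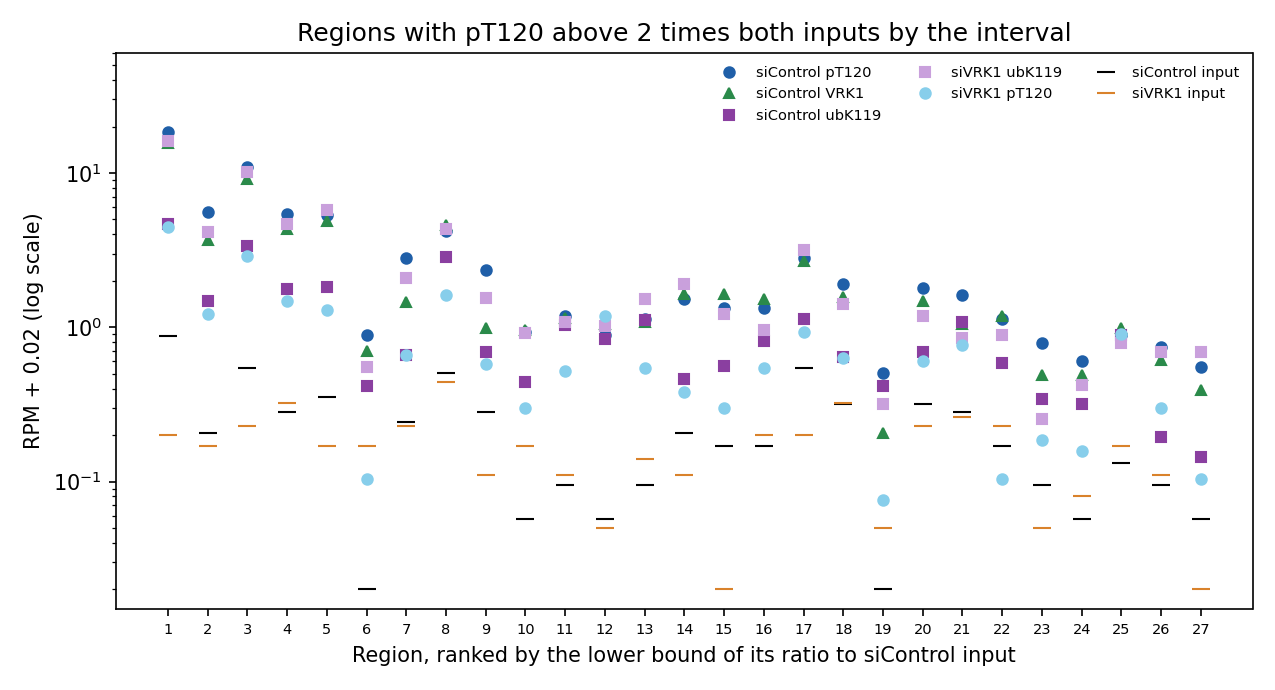
RPM plus 0.02 (vertical axis, log scale) of each of the 7 libraries in the 27 regions with a pT120 interval above 2 over both inputs, ranked by the lower bound of the ratio to the siControl input (horizontal axis). Both inputs (dashes) stay at or below 0.855 RPM, and VRK1 lies close to pT120 in most of the regions.

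The region with the most pT120 reads lay on chromosome 1 at 165721509 to 165721916 (hg19, as all positions below, written as the lists give them). It held 384 pT120 reads, which is 18.6 RPM, against 23 reads or 0.855 RPM of siControl input and 6 reads or 0.180 RPM of siVRK1 input. The ratio was 21.7 (14.3 to 34.7) over the siControl input and 103 (46.8 to 282) over the siVRK1 input. VRK1 stood at 15.6 RPM and siVRK1 ubK119 at 16.2 RPM, and both siControl ubK119 at 4.67 RPM and siVRK1 pT120 at 4.44 RPM were lower. No antibody library was near the inputs here.

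The next regions by the lower bound of the ratio repeated that pattern. Chromosome 12 at 127861063 to 127861423 held 116 pT120 reads against 5 in each input, a ratio of 30.2 (12.6 to 94.6) over the siControl input. Chromosome 1 at 191583277 to 191583484 held 226 against 14 and 7, a ratio of 21.0 over the siControl input. Chromosome 16 at 3124472 to 3124876 held 111 against 7 and 10, a ratio of 20.6. These were peaks in all 4 antibody lists, and in each of them pT120 was the highest of the 7 libraries in RPM.

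Chromosome 1 at 205204835 to 205205196 held 110 pT120 reads against 9 and 5, with a ratio of 15.9. Chromosome 2 at 232544235 to 232544632 held 58 against 6 and 7, with a ratio of 12.6. Chromosome 13 at 34238692 to 34239080 held 87 against 13 and 14, with a ratio of 8.70. In the first and the last of these, other libraries exceeded pT120. In the first it was siVRK1 ubK119, with 5.74 RPM against 5.32 of pT120. In the last, VRK1 had 4.59 RPM and siVRK1 ubK119 4.34 RPM, against 4.21 of pT120. A shorter region on chromosome 16, from 17421450 to 17421650, held 18 pT120 reads and no siControl input read. The lower bound of its ratio, which covers the counting error of both libraries, was 5.72, and over the 5 reads of the siVRK1 input the ratio was 5.79.

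A pair of regions on chromosome 17 ranked among the 10 highest only by the siControl input. At 31149416 to 31150039, 64 pT120 reads stood against 6 siControl input reads, a ratio of 13.9, but the siVRK1 input held 62 reads and gave 1.66. At 41466137 to 41466340, 50 reads stood against 6, a ratio of 10.8, and the siVRK1 input held 79 reads, a ratio of 1.02. Both were in all 5 lists, the siVRK1 input list included. Across the 10 highest, 10 overlapped a siControl pT120 peak, against 9.15% of tested regions. A VRK1 interval above 1 over the siControl input was found in 10, against 7.89%, and a ubK119 interval above 1 in 10, against 9.05%. The pT120 interval over the siVRK1 input was above 1 in 9, against 2.28% of 34631 regions. These counts come from regions chosen for a high ratio over the siControl input, which is also the denominator for VRK1 and ubK119. That choice favours high pT120, and so also pT120 peaks and a high ratio over the siVRK1 input.

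The best region of each list that was not among those 10 had fewer reads. Chromosome 2 at 133014722 to 133015871, from the VRK1 list, held 64 pT120 reads against 10, but 78 in the siVRK1 input. Chromosome 21 at 20161071 to 20161288, from siControl ubK119, held 18 pT120 reads against 1 in each input, so its ratio rests on a single input read. Chromosome 18 at 45900066 to 45900444, from siVRK1 pT120, held 23 against 2 and 4. The best of siVRK1 ubK119, chromosome 7 at 1498122 to 1498390, and of siVRK1 input, chromosome 3 at 52091795 to 52092044, held 13 and 14 pT120 reads and no siControl input read, and 7 and 17 siVRK1 input reads. All 5 regions had a ratio above 1 over the siVRK1 input, and for 3 the interval lay above 1.

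Regions at the low end were mostly places of high siControl input, as the choice by a low ratio to it makes likely. Chromosome 6 at 115577021 to 115577227 held 1 pT120 read against 60 siControl input reads, a ratio of 0.0217 RPM per RPM. The siVRK1 input held 6 reads there, so the height belonged to 1 input library. Chromosome 13 at 110076445 to 110076839 held 2 pT120 reads against 47 and 37 in the inputs, and chromosome 7 at 145694276 to 145694664 held 4 against 39 and 32. In these 2 regions both inputs were high and pT120 was low. Chromosome 12 at 95360 to 95700 held 5 pT120 reads against 43 and 54, a ratio of 0.151, while VRK1 stood at 1.13 of the siControl input.

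The remaining 6 of the 10 lowest held 0 to 2 pT120 reads against 13 to 24 siControl input reads. Where pT120 was at 0, as on chromosome 3 at 186349257 to 186349457 with 15 input reads, the upper bound of the ratio was 0.362. A siControl input peak overlapped 9 of the 10 lowest, against 16.7% of tested regions. A pT120 peak overlapped 1, against 9.15%. Against the siVRK1 input all 10 had a ratio below 1. For 7 the interval was below 1, against 2.12% of 34631 regions outside the list of that input. The siControl ubK119 interval over the siControl input was below 1 in 8, against 7.32% of the 27014 tested regions outside the siVRK1 input list. Some of the 10 came from that list. The VRK1 interval was below 1 in 3 and above 1 in 0, and its share below 1 in tested regions was not counted. These counts come from regions chosen for a low ratio over the siControl input, which is also the denominator for ubK119 and VRK1. That choice favours siControl input peaks and low pT120, and so also a low ratio over the siVRK1 input. An upper bound under 0.5 against both inputs was met by 3 regions in all, out of 13 against the siControl input.

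By chromosome, pT120 over the siControl input was above 1 on 8, below 1 on 7, and had an interval that included 1 on 7. The highest ratios were on chromosome 17, at 1.19 (1.17 to 1.22), chromosome 15 at 1.13, chromosome 19 at 1.12 and chromosome 1 at 1.09. The lowest were on chromosome 16 at 0.935, chromosome 3 at 0.936, chromosome 22 at 0.939 and chromosome 13 at 0.941. Chromosomes 17 and 19 are known as rich in genes and chromosome 13 as poor in genes, but the gene-rich chromosome 22 was among the lowest, from only 318 regions and with an interval that reached 1.01. Over the siVRK1 input, with its list left out, the chromosomes ranged from 0.888 to 1.01, with 0 above 1 and 17 below. Chromosome 17 then had 0.959 and chromosome 19 had 0.964.

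**Figure D4:**
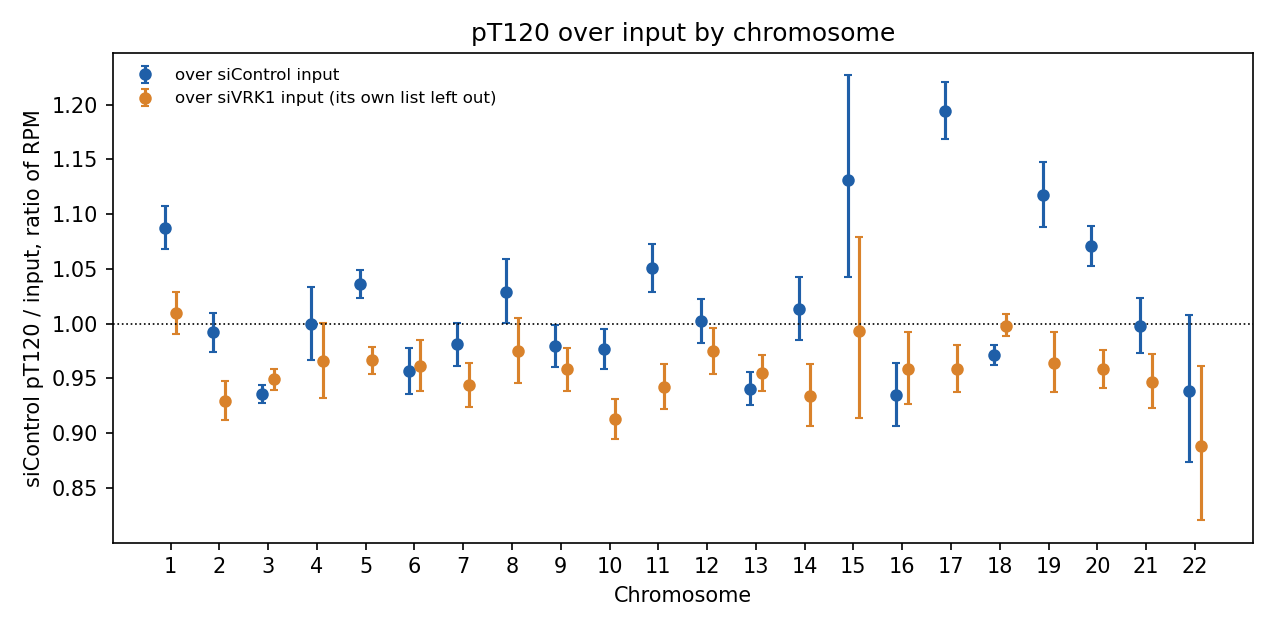
Ratio of siControl H2A pT120 to the siControl input and to the siVRK1 input for chromosomes 1 to 22 (vertical axis, ratio of summed RPM; bars, 95% counting intervals; regions of the siVRK1 input list left out of its ratio). Chromosome 17 is the highest over the siControl input at 1.19, and no chromosome lies above 1 beyond its interval over the siVRK1 input.

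Windows of 5 Mb with at least 20 regions placed the differences more finely. Among 481 windows the median ratio was 0.962 (quartiles 0.867 and 1.08), with 83 windows above 1 and 115 below beyond their intervals. The lowest was 0.617, on chromosome 12 at 60 to 65 Mb. The highest was 5.34, on chromosome 1 at 165 to 170 Mb, where the region of 384 reads lies, and it was 1.54 without that region. Single regions also made the window at 205 to 210 Mb of chromosome 1, which went from 2.04 to 0.946 without its top region, and that at 0 to 5 Mb of chromosome 16, which went from 2.03 to 1.37. With the top region of every window left out, 72 windows were above 1.

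Windows above 1 in pT120 over the siControl input were also higher in the siVRK1 input over the same library. The siVRK1 input stood at a median of 1.28 of the siControl input in the 83 windows above 1, and at 0.877 in the 115 below, against 1.01 over all windows. VRK1 over the siControl input had medians of 1.55 and 0.960 in the same windows, against 1.19 over all. All of these ratios share the siControl input as denominator, so a window with few siControl input reads is raised in each of them. Regions of the siVRK1 input list were left out of all window ratios with that library. Of the 83, 5 were also above the siVRK1 input, against 10 of all 481 windows. Of the 115, 41 were also below it, against 99 of all 481. The windows that open a chromosome showed the same: of 16, 10 were above 1 and 0 below, with a median of 1.15, and the siVRK1 input stood at a median of 1.18 of the siControl input there. The part of the siControl input in the windows above 1 was not tested.

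The library most like siControl pT120 in these windows was VRK1. In RPM per kb over the 481 windows, Spearman's rho with pT120 was 0.946 for VRK1, 0.925 for the siVRK1 input, 0.856 for siVRK1 ubK119, 0.853 for the siControl input and 0.732 for siControl ubK119. It was -0.43 for siVRK1 pT120, the library made with the same antibody. Windows share base composition, mappable sequence and copy number, and they were built from regions chosen as high in 5 of the libraries, siVRK1 pT120 among them, so these are descriptions of the windows only. Pearson's r of the log2 values gave 0.941 for VRK1 and -0.16 for siVRK1 pT120. With 1 library for each antibody and siRNA, whether each library carries the right label could not be checked from the files, and every comparison between libraries takes the labels as given.

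Centromeres, where BUB1 places the mark in mitosis, could be approached only from the side. For this, the widest stretch without a listed region was taken on each chromosome, if it was at least 2.5 Mb wide and 1.4 times the next widest. This gave 15 chromosomes, on which that stretch is known to hold the centromere. The 3505 regions within 2 Mb of it had a ratio of 0.936 (0.924 to 0.948), against 1.01 (1.01 to 1.02) in the 78271 farther away. By chromosome the regions near it were above 1 on 2, chromosome 17 with 1.28 and chromosome 20 with 1.11, and below 1 on 9, the lowest being chromosome 10 with 0.753 and chromosome 7 with 0.785. Over the siVRK1 input, with its list left out, the near and far regions had 0.965 (0.952 to 0.979) and 0.954 (0.949 to 0.959). The lower ratio near the stretch was thus not seen. Regions with over 100 input reads, which are left out here, and the centromeric repeats themselves are not covered by these values. Chromatin was not stated to come from mitotic cells.

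The same contrast in siVRK1 cells, pT120 over the input of those cells, was read in the VRK1 list and both ubK119 lists, since the remaining lists were called in the libraries compared. In those 50622 regions siVRK1 pT120 took 0.613 (0.611 to 0.616) of the share of its input. In siControl cells pT120 took 1.06 (1.05 to 1.06) of its input in the same regions. No library is shared by these contrasts, but their inputs differed in these regions, with the siVRK1 input at 1.13 of the siControl input. Over the siVRK1 input, siControl pT120 was at 0.939 (0.934 to 0.943), also below 1. By list the siVRK1 ratio was 0.528 in VRK1 regions, 0.796 in siControl ubK119 regions and 0.446 in siVRK1 ubK119 regions, and the siControl ratio was 1.06, 0.992 and 1.16. The list with the highest ratio in siControl cells had the lowest in siVRK1 cells. Because RPM compares shares of a library, a lower ratio here means that more of the siVRK1 pT120 reads lay elsewhere, and total pT120 in the cells cannot be read from it.

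Region by region, siVRK1 pT120 was below its input beyond the interval in 24.4% of 28311 regions of these lists and above it in 1.29%. By fold, 44.7% had a ratio of 0.5 or less and 5.81% had 2 or more. For siControl pT120 the shares were 2.07% below and 5.19% above, of 19986 regions, with 11.7% at 0.5 or less and 15.7% at 2 or more. Over 354 windows with at least 20 such regions, the siVRK1 ratio had a median of 0.470 in the 96 windows where siControl pT120 was above its input, and of 0.690 in the 25 where it was below. Across these windows Spearman's rho between both ratios was -0.57 and Pearson's r of their log2 values was -0.36, as a description of windows that share sequence content and peak lists. The window of the region of 384 reads went the other way, with the highest siControl ratio, 6.28, and a siVRK1 ratio of 1.58. Inputs differed between the siRNAs in the same windows, as given above, and their part in this relation was not tested. Whether the difference comes from the siRNA or from the individual libraries cannot be told apart with 1 library a side.

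**Figure D5:**
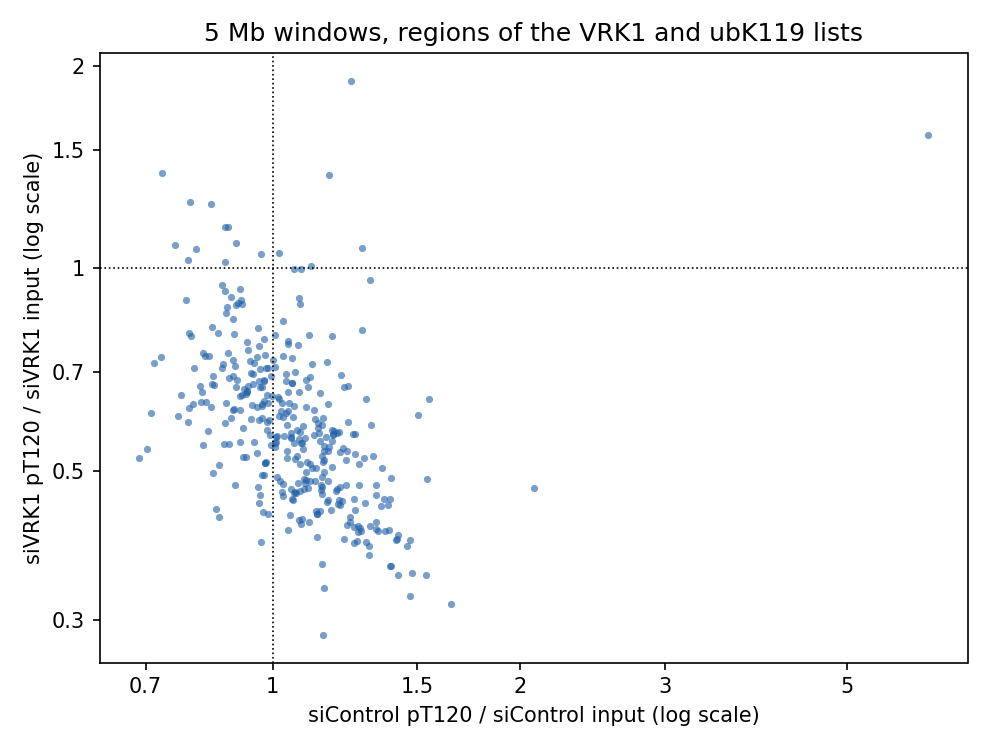
Ratio of pT120 to input in siControl cells (horizontal axis, log scale) and in siVRK1 cells (vertical axis, log scale), each over the input of the same cells, for 354 windows of 5 Mb in regions of the VRK1 and both ubK119 lists. Windows with a higher siControl ratio tend to have a lower siVRK1 ratio, with a Spearman's rho of -0.57, and 1 window lies far to the right at 6.28 and 1.58.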

How the data were processed

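Per the labels' protocols, libraries of fixed and sonicated nuclei had 20 PCR cycles and 36 sequencing cycles. Per the submitters' processing notes, CASAVA 1.8.2, Bowtie 0.12.8, Partek and hg19 were used. The caller's settings and the handling of duplicates were not given in the sources used here, and PCR duplicates can narrow counting intervals wrongly. The deposited lists give raw counts of reads of all 7 libraries per region. Per the file headers, peak height (a signal of extended reads) and the same height in RPM were deposited too, and height over RPM gave the library totals. The percent overlap with other peaks, as deposited, marked input and pT120 peaks. The deposited p-value was not used.

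Ratios are of summed RPM with exact conditional binomial (Clopper-Pearson) 95% intervals, computed with scipy 1.17.1, numpy 2.4.6 and pandas 2.3.3 in Python 3.11.15. The code was tested on simulated Poisson counts. These hold counting error only, so the test does not bear on PCR duplicates or on spread between libraries. Named are the 10 regions with the highest lower bound, the 10 with the lowest upper bound and the best remaining region of each list. The members and lists were chosen with earlier results of these data known. The centromere-side class, the likeness between libraries and the leaving out of a list from ratios to its own library were added after the data were seen. Gene lists were not analysed here, since no annotation of hg19 was used.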

Additional observations from a re-analysis of the deposited data

Results flagged for a closer look

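At regions listed for VRK1, pT120 over input was 1.06 in siControl cells and 0.528 in siVRK1 cells. At regions listed for siVRK1 ubK119 it was 1.16 and 0.446. The ratios lay on opposite sides of 1 under the 2 siRNAs in both lists. The difference was not tested, since each value rests on 1 pair of libraries. Over the siVRK1 input, siControl pT120 was 0.951 and 0.952 in the same lists.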

How the results depend on the processing

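The summed ratio of 0.996 was 0.821 over the siVRK1 input and 0.962 with that library's list left out, 0.953 with no input limit, 1.03 outside input peaks, 0.984 without the VRK1 list, 0.972 without the siVRK1 ubK119 list, 1.04 without the siVRK1 pT120 list and 1.01 with reads in siVRK1 input regions as library total. The median log2 ratio of 0.016 was -0.17 over the siVRK1 input and -0.052 with its list left out, -0.0085 without the VRK1 list, -0.049 without siVRK1 ubK119, 0.089 without siVRK1 pT120, 0.029 with the other total and 0.057 with 1 read added. The 4752 regions at 2 or more became 3096 over the siVRK1 input, 3094 without its list, 667 at a minimum of 20 reads and 9397 at a fold of 1.5. The 5034 at 0.5 or less became 14272 over the siVRK1 input, 2754 outside input peaks, 622 at 20 reads and 9459 at a fold of 1.5.

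By list, the settings were the siVRK1 input, no limit and outside input peaks: 0.951, 0.936 and 1.20 for VRK1, 0.940, 0.915 and 1.05 for siControl ubK119, 0.952, 0.952 and 1.36 for siVRK1 ubK119, and 0.976, 0.866 and 0.863 for siVRK1 pT120. The siVRK1 input list had 0.606 over its own library and 0.915 with no limit. A limit of 50 reads gave 1.08 for VRK1 and 1.19 for siVRK1 ubK119. Of the chromosomes, 0 were above 1 and 22 below over the siVRK1 input (0 and 17 without its list), 5 and 12 with no limit, and 16 and 3 outside input peaks. The siVRK1 contrast of 0.613 became 0.676 with no limit and 0.626 outside input peaks. Over the siVRK1 input with its list left out, the class in 2 lists fell to 0.930 and VRK1 quartiles 3 and 4 to 0.953 and 0.975. Regions far from the widest stretch fell to 0.954 in that setting. Of the 25 named regions, 19 kept their side over the siVRK1 input, 6 were no longer past it and 0 reversed. The cause of these changes was not tested. No paired analysis was possible because each group has 1 library. Counts of 3 to 4 reads in the median region limit single regions.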
